A study of Arabidopsis thaliana with 6 samples.

Results

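The genes described here are AT5G04700 and 7 related ankyrin repeat genes of Arabidopsis thaliana, measured in phloem-marked and unmarked cells of cultured cotyledons. The members are AT5G04680, AT5G04690, AT5G04700 and AT5G04730 from a tandem cluster on chromosome 5, the relatives AT5G35810 and AT5G35830 on the same chromosome, and AT3G18670 and AT3G54070 on chromosome 3. Each was taken through the probe set annotated to that gene alone, and all 8 of the 8 listed genes had exactly 1 such probe set, among 16550 genes named on the array. AT5G04700 was chosen by its measured difference between the cell populations, which was among the largest in these data, so its values are a description, and it is left out of the counts of called relatives. The other 7 were listed as its relatives with results of these data known, and their rows of the table-wide comparison are likewise given as a description.

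The material was 6 arrays. All came from plants carrying SEOR1pro::SEOR1-YFP, a YFP fusion of a sieve element protein driven by its own promoter. Per the labels, both groups came from cotyledons of seedlings grown for 6 days and kept in induction medium for 72 hours. The medium held 10 µM of bikinin, which blocks GSK3-like kinases, beside the synthetic auxin 2,4-D at 1.25 mg/L and 0.25 mg/L of the cytokinin kinetin, and in this culture system, called VISUAL, leaf mesophyll cells turn into vascular cells. Protoplasts were sorted into a YFP-positive group of 3 arrays, labelled phloem, and a YFP-negative group of 3 arrays, which holds the cells without the marker. SEOR1 itself was not analysed here and so gives no check of the sort, and as the labels do not tie replicates to separate cultures, the p-values reflect the spread between these samples alone, which may be technical. In sorted pools, a difference in the number of cells that express a gene and a difference in RNA per cell cannot be told apart.

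Ankyrin repeats are short helical motifs that stack into a curved surface and bind other proteins. Plants hold a large family of such proteins, many of which carry membrane-spanning segments behind the repeats. The best studied members of that membrane class in Arabidopsis are ACD6, which acts in salicylic acid signalling and defence, and ITN1, which acts in the salt stress response; other ankyrin repeat proteins are transcriptional coregulators, such as NPR1 and BOP1, or potassium channels. The individual members described here are annotated by their repeats, and no role of a single one in phloem is assumed below.

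The 8 genes fell into a bright and a dim set. AT5G04680, AT5G04690, AT5G04700 and AT3G18670 had higher values in YFP-positive than in YFP-negative cells in every same-numbered pair, with log2 differences of 6.40 ± 0.99, 6.56 ± 0.82, 6.84 ± 0.96 and 4.30 ± 0.37 (SE, n = 3 arrays a group). AT5G04730, AT3G54070, AT5G35810 and AT5G35830 stayed under the median of their array on all 6 arrays, with log2 differences between 0.04 and 0.29. The plot of the members by array shows both sets on the same scale.

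**Figure D1:**
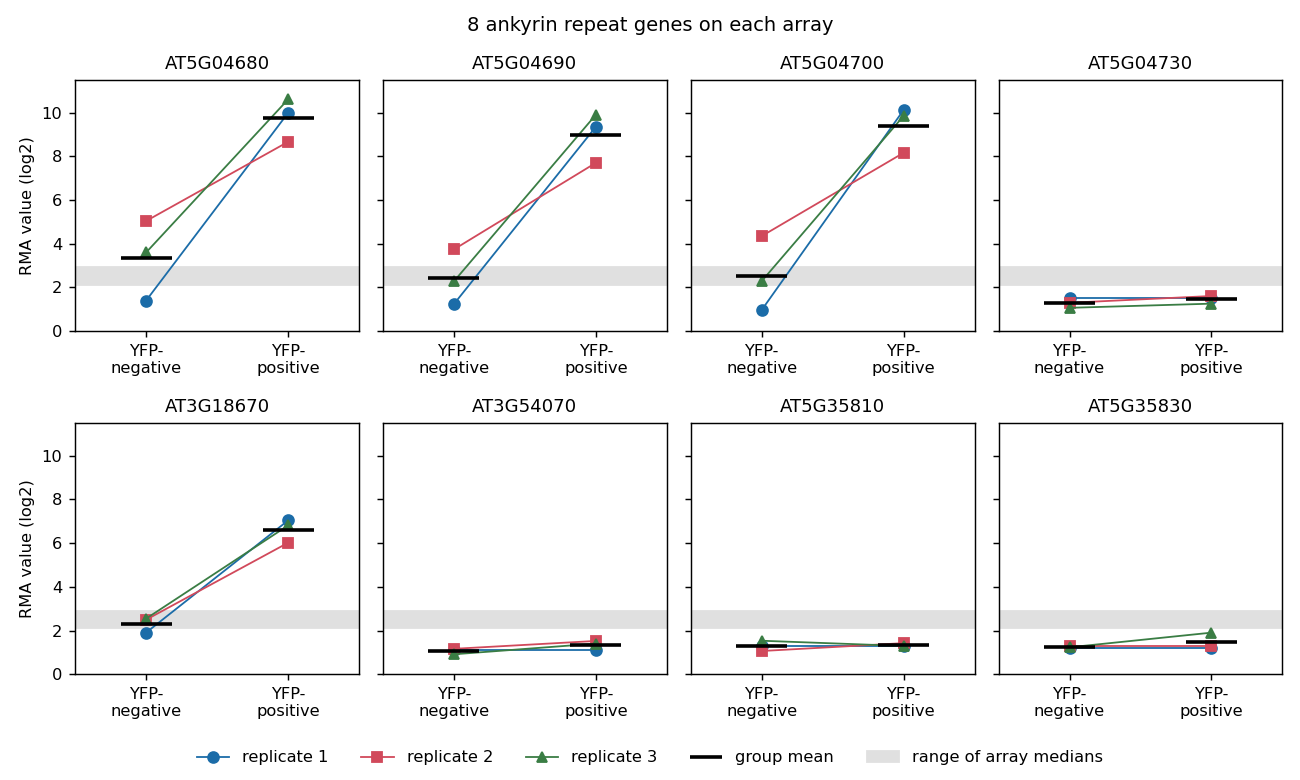
RMA values (log2, vertical axis) of the 8 ankyrin repeat genes in YFP-negative and YFP-positive arrays; coloured lines join arrays of the same replicate number, black bars are group means of 3 arrays, and the grey band spans the 6 array medians, 2.10 to 2.92. In AT5G04680, AT5G04690, AT5G04700 and AT3G18670 every line climbs and the groups do not overlap, whereas the other 4 genes lie under the band in both groups.

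AT5G04700 stood at 0.97, 4.35 and 2.29 on the log2 scale in YFP-negative replicates 1, 2 and 3, and at 10.12, 8.16 and 9.85 in YFP-positive replicates 1, 2 and 3. The groups did not overlap, and the lowest YFP-positive and the highest YFP-negative value both came from the arrays numbered 2. Its group means were 9.38 ± 1.06 (SD, n = 3) and 2.53 ± 1.71 (SD, n = 3). Among the 16550 genes, its difference ranked 2 in pair 1, 148 in pair 2 and 30 in pair 3.

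AT5G04690, the gene just before AT5G04700 in the reference order, stood at 1.24, 3.74 and 2.28 in the YFP-negative arrays and at 9.35, 7.70 and 9.90 in the YFP-positive arrays. Again the YFP-negative array numbered 2 was the highest of its group and the YFP-positive array numbered 2 the lowest of its group, without overlap. The pair differences were 8.10, 3.96 and 7.62. The adjusted p was 0.0272 in limma, against 0.106 with the replicate number as a block, and ranged from 0.0015 to 0.144 over 14 alternatives. The call was lost without YFP-negative replicate 1 (adjusted p = 0.0656) or 3 (0.112), and without YFP-positive replicate 1 (0.0943) or 3 (0.144), each from limma.

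AT5G04680, the next gene of the row, stood at 1.40, 5.04 and 3.60 in the YFP-negative arrays and at 9.98, 8.66 and 10.60 in the YFP-positive arrays. The groups did not overlap, and 2 of the 3 YFP-negative values lay above the median of their array. The pair differences were 8.58, 3.62 and 7.01. Despite the size of this difference, the adjusted p in limma was 0.0519, just over the threshold of 0.05, and 0.125 with the replicate block. Over the alternatives its adjusted p ranged from 0.00211 to 0.236, and it came to 0.0319 in limma without YFP-negative replicate 2, where the difference was 7.25.

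The fourth gene with a large difference, AT3G18670, lies on another chromosome. It stood at 1.91, 2.50 and 2.55 in the YFP-negative arrays and at 7.04, 6.02 and 6.81 in the YFP-positive arrays. The groups did not overlap, and values varied less within each group than in the 3 tandem genes, with SDs of 0.36 and 0.54. The pair differences were 5.13, 3.51 and 4.26. The adjusted p was 0.00912 in limma and 0.0542 with the replicate block, and the alternatives gave 0.00168 to 0.0728. It was not called without YFP-negative replicate 3 (adjusted p = 0.0529 in limma) or without YFP-positive replicate 3 (0.0728 in limma).

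Of the 7 relatives, 2 passed an adjusted p of 0.05 in limma, AT5G04690 and AT3G18670, both higher in YFP-positive cells, where 0.858% of all genes were called higher and 0.224% lower. With the replicate block 0 of the 7 passed in limma, where 0.495% of all genes were called higher and 0.544% in either direction. There 3 of the 7 had an unadjusted p under 0.05, as did 2279 of all 16550 genes. Groups did not overlap for 3 of the 7, all higher in YFP-positive cells, and for 4.96% of all genes in that direction and 4.34% in the other. These counts come from the comparison that picked AT5G04700, so nothing is read from them about the family. For AT5G04690, AT5G04700 and AT3G18670, 2 of 3 YFP-negative values lay under the median of their array, and for AT5G04680 1 did. Background signal was not measured, so differences are given without folds, and the size of these differences in transcript level is unknown.

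The plot of pair differences shows how unevenly the 3 pairs contributed. For each of the 4 genes the difference was smallest in pair 2, as it was for 60.6% of the 142 genes called higher and for 36.5% of all genes. In AT5G04700 YFP-negative replicate 2 lay 2.73 above the mean of the other 2 YFP-negative arrays, in AT5G04680 2.54 above and in AT5G04690 1.98 above, while in AT3G18670 it lay 0.27 above. YFP-positive replicate 2 lay under the mean of the other 2 YFP-positive arrays by more in the 3 tandem genes (-1.63 to -1.92) than in AT3G18670 (-0.91). The arrays numbered 2 had the lowest medians, 2.10 and 2.20, against 2.55 to 2.92 on the others. After each array was set to its own median, the excess of YFP-negative replicate 2 was 3.30 in AT5G04700, 3.12 in AT5G04680, 2.56 in AT5G04690 and 0.85 in AT3G18670. The deficit of YFP-positive replicate 2 was then -1.07 to -1.36 in the tandem genes and -0.34 in AT3G18670. So set, YFP-negative replicate 2 was the highest of its group for 49.1% of all genes and 52.8% of the 142 called higher. YFP-positive replicate 2 was the lowest of its group for 25.9% and 47.2%. As deposited, the shares were 21.2% and 32.4% for YFP-negative replicate 2, and 57.8% and 74.6% for YFP-positive replicate 2.

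**Figure D2:**
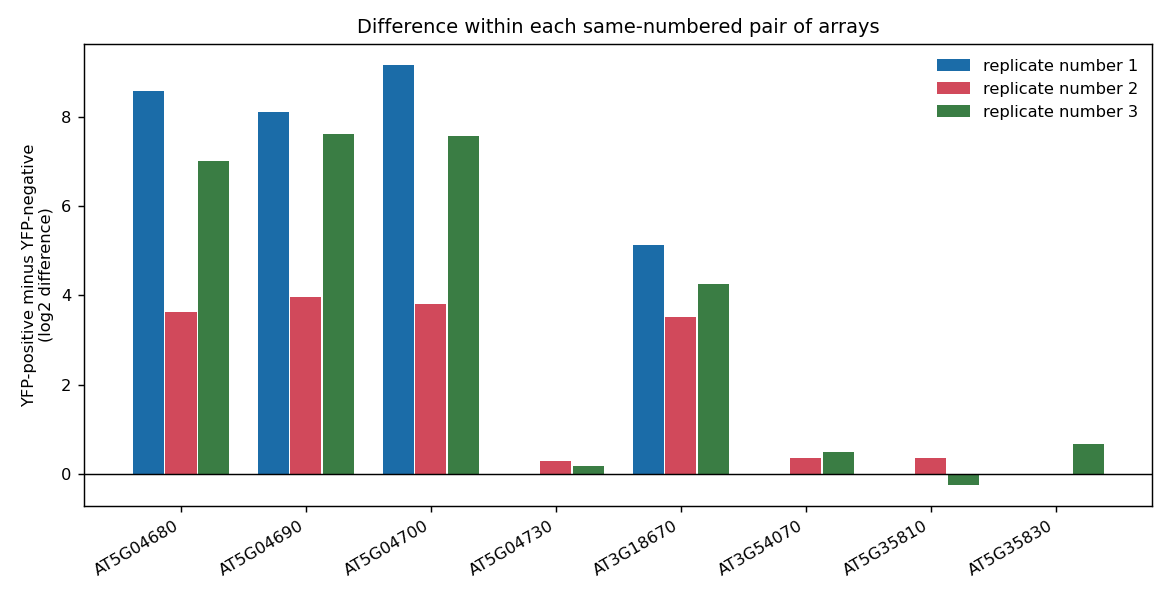
YFP-positive minus YFP-negative log2 difference (vertical axis) for each of the 8 genes, with 1 bar for each same-numbered pair of arrays. Pair 2 gives the shortest bar in AT5G04680, AT5G04690, AT5G04700 and AT3G18670, between 3.51 and 3.96, while pair 1 gives 5.13 to 9.16; missing bars in the other genes are differences of 0.

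Both arrays numbered 2 were also left out, an alternative chosen after seeing the data. The log2 differences were then 8.36 for AT5G04700, 7.86 for AT5G04690, 7.79 for AT5G04680 and 4.69 for AT3G18670. Again 2 of the 7 relatives were called in limma. Of all 16550 genes, fewer were then called than with all arrays, both higher and lower. Only 3 were called lower, and 97.6% of the calls were higher. Few markers of cell types were measured under a name. The 4 measured of 13 listed sieve element and early phloem markers had a summed linear value of 89.5 on YFP-negative replicate 2, between the 76.2 and 158 of the other YFP-negative arrays, and of 102 to 230 in YFP-positive arrays. CLE25 was the brightest of the 4 on every array and weighed most in these sums. They are not read as a measure of phloem cells. On YFP-negative replicate 2 CLE45 (1.44) and OPS (2.41) were at their lowest of the YFP-negative arrays. CLE26 (1.35) and CLE25 (6.30) lay between their values on the other YFP-negative arrays. After each array was set to its own median, that array lay above the mean of the other 2 YFP-negative arrays in CLE25 (0.90) and CLE26 (0.60). It lay under that mean in CLE45 (-0.25) and OPS (-2.26). Between the groups the log2 differences were 2.15 for CLE45, 0.73 for OPS, 0.35 for CLE26 and 0.13 for CLE25. CLE45 did not overlap between the groups. Its adjusted p in limma was 0.0951, and 0.0444 with the replicate block. OPS, CLE26 and CLE25 overlapped and were called in neither fit. The 3 measured of 7 photosynthesis markers summed to 530 to 994 in YFP-negative and 431 to 583 in YFP-positive arrays. Their log2 differences were -1.13 for PSBW, -0.71 for RCA and 0.05 for LHCB4.1, with none called in limma. YFP-negative replicate 3 had the highest value of the 6 arrays in the few genes measured for companion cells, for epidermis and guard cells, and for xylem. Its array median, 2.80, was also the highest of the YFP-negative arrays. SWEET11, the 1 gene measured of 4 listed for companion cells, was at a linear value of 243 there. It was at 17.3 and 4.90 on YFP-negative replicates 1 and 2 and at 2.62 to 33.9 in YFP-positive arrays. This 1 gene is not read as a measure of companion cells. The 2 measured of 4 epidermis and guard cell markers summed to 46.9 there, against 4.69 and 4.84 and a range of 4.19 to 7.44 in YFP-positive arrays. Most of that sum came from FAMA (AT3G24140), at a log2 value of 5.42, while MUTE, at 2.05, lay under the array median. The 1 measured of 7 xylem markers, GUT2, was at 11.3 on YFP-negative replicate 3, against 3.96 and 3.14 and a range of 2.31 to 5.52 in YFP-positive arrays. On the log2 scale its value on replicate 3 was 3.50, beside the array median of 2.80. So few genes are not read as a measure of these cell types. Without YFP-negative replicate 3, 0 of the 7 relatives were called in limma, and 3 had an unadjusted p under 0.05. Of all 16550 genes, 38 were then called higher and 0 lower, against 142 and 37 with all arrays. Without YFP-positive replicate 3, 0 of the 7 were called as well, with 37 of all genes called higher. Leaving out YFP-negative replicate 3 gave log2 differences of 6.49 for AT5G04690, 6.53 for AT5G04680 and 4.41 for AT3G18670. The part of cell composition in the members' differences was not tested.

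No difference was called in the dim set. AT5G04730, which lies in the same cluster 3 places after AT5G04700, stood at 1.54, 1.30 and 1.07 in the YFP-negative arrays and at 1.54, 1.61 and 1.26 in the YFP-positive arrays. The groups overlapped, and the log2 difference was 0.16 (SE 0.25, adjusted p = 1.0 in limma). AT3G54070 stood at 1.13, 1.17 and 0.92 against 1.13, 1.53 and 1.41, a log2 difference of 0.29 (SE 0.24). Its groups overlapped, since YFP-positive replicate 1 equalled YFP-negative replicate 1 and lay under YFP-negative replicate 2.

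AT5G35810 and AT5G35830 neighbour each other with only a pseudogene between them in the reference order. AT5G35810 stood at 1.29, 1.07 and 1.54 in YFP-negative and at 1.29, 1.43 and 1.30 in YFP-positive arrays, a log2 difference of 0.04 (SE 0.24). AT5G35830 stood at 1.21, 1.29 and 1.24 against 1.21, 1.29 and 1.91, a log2 difference of 0.23 (SE 0.28) that came from pair 3 alone. Both genes overlapped between the groups and neither was called (adjusted p = 1.0 each in limma). With all values under the array medians, the arrays do not show whether any of the 4 dim genes was transcribed.

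All 4 dim genes had exactly equal values on both arrays numbered 1, and AT5G35830 also on both arrays numbered 2 (tolerance 0). Equal values were common on the arrays numbered 1, for 35.1% of all probe sets, against 5.1% and 4.8% for numbers 2 and 3. On YFP-negative replicate 1 the value of AT3G54070 was shared by 3219 other probe sets, that of AT5G35810 by 695, that of AT5G35830 by 386 and that of AT5G04730 by 322. A pair 1 difference of 0 in these genes is therefore a tie at a repeated low value. Equal values on the arrays numbered 1 also occurred above the array medians, as in AT5G04710 at 4.79. In AT5G04680, AT5G04690 and AT5G04700 no value was shared with another probe set on any array.

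AT5G04680, AT5G04690 and AT5G04700 follow each other without another gene between them in the RefSeq order of assembly TAIR10.1. AT5G04710, annotated as a peptidase and next in the row, stood at 4.79, 2.97 and 2.75 in YFP-negative and at 4.79, 4.39 and 4.03 in YFP-positive arrays. Its groups overlapped, and its log2 difference was 0.90 (SE 0.59, adjusted p = 1.0 in limma). ADR1-L2, a helper immune receptor gene between AT5G04710 and AT5G04730, was not analysed here. Before AT5G04680, the nearest 4 genes were not analysed here, and AT5G04670, 5 places away, had a log2 difference of 0.60 (SE 0.83). Copies of a tandem cluster can share probe signal, and since no probe or gene sequence was used here, that was not tested for these 3 genes.

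**Figure D3:**
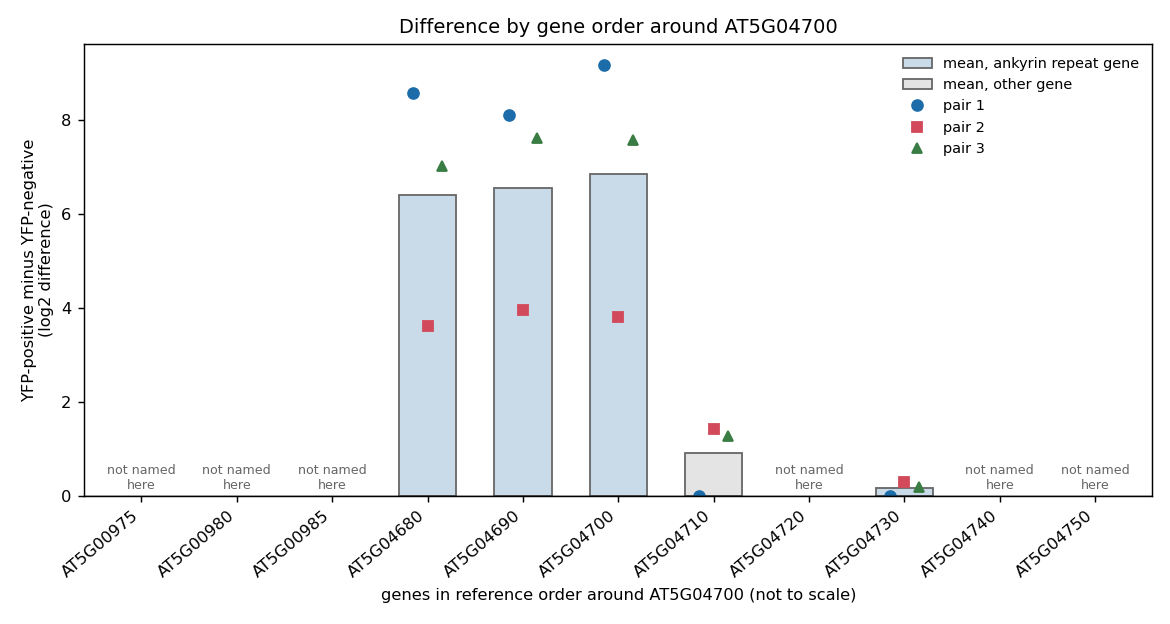
YFP-positive minus YFP-negative log2 difference (vertical axis) of the genes around AT5G04700 in reference order, with bars for the mean over pairs and points for the 3 pairs; genes not named here are marked. Bars of 6.40, 6.56 and 6.84 for AT5G04680, AT5G04690 and AT5G04700 stand beside 0.90 for AT5G04710 and 0.16 for AT5G04730.

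Taking the 5 genes on either side of each member, 11 of 43 non-member neighbours were measured. In limma 0 of these were called (1 at an unadjusted p under 0.05). Of all 16550 genes, 1.08% were called and 1318 had an unadjusted p under 0.05. The median log2 difference of the neighbours was -0.05, against -0.04 over all genes. The neighbour outside that pattern was AT3G54040, annotated as a PAR1 protein, 4 places before the dim AT3G54070. It stood at 8.28, 8.17 and 9.06 in YFP-negative and at 10.52, 10.52 and 11.16 in YFP-positive arrays, with no overlap. Its log2 difference was 2.23 (SE 0.35), with an adjusted p of 0.0543 in limma, 0.0444 with the replicate block and a range of 0.0081 to 0.263 over the alternatives. Among the measured neighbours of AT3G18670, AT3G18640 had the largest difference, at 0.47 (SE 1.09), and AGL103, a MADS-box gene of the AGAMOUS-like class, lay at 0.09 (SE 0.29).

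Across the 6 arrays the bright genes followed nearly the same course. Pearson's r was 0.993 between AT5G04680 and AT5G04690, 0.994 between AT5G04680 and AT5G04700 and 0.996 between AT5G04690 and AT5G04700, while AT3G18670 stood at 0.969 to 0.984 with these 3. The values share the same 6 arrays and the same split into groups, so these coefficients describe the profiles only. Ranked by r with AT5G04700 over all named genes, AT5G04690 came 1 and AT5G04680 came 2, and AT3G18670 came 35, with 104 genes (0.63%) at an r of 0.95 or more. The dim members came far lower, from AT3G54070 at r = 0.617 to AT5G35810 at r = -0.066.

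The other genes among the 5 most like AT5G04700 were AT4G30880, AT3G15800 and AT5G03510, each at r = 0.993. AT4G30880, a lipid transfer-like protein gene, stood at 2.62, 5.16 and 2.61 in YFP-negative and at 10.10, 8.95 and 10.18 in YFP-positive arrays. AT3G15800, which encodes a glycosyl hydrolase, stood at 1.57, 5.10 and 3.10 against 10.38, 9.69 and 10.04. The zinc finger gene AT5G03510 stood at 1.19, 3.99 and 1.47 against 8.84, 7.96 and 8.64. Their likeness to AT5G04700 on each array follows from the way they were chosen.

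Other ankyrin repeat genes, listed by locus, served as the wider family. Of 55 such genes, 32 were measured under a name. In limma 0 were called in either direction, where 1.08% of all genes were called, and 0 were called with the replicate block. At an unadjusted p under 0.05 in limma were 2 of the 32, and 4 with the block. Of all 16550 genes, 1318 and 2279 were. The median log2 difference of the 32 was -0.02, with 14 above 0 and 18 below 0, against a median of -0.04 over all genes. Of the 32, 20 (62.5%) lay under the median of their array on all 6 arrays, as did 36.6% of all genes. ACD6, ITN1, NPR1 and BOP1 were among the genes not analysed here, so the list says nothing of them.

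**Figure D4:**
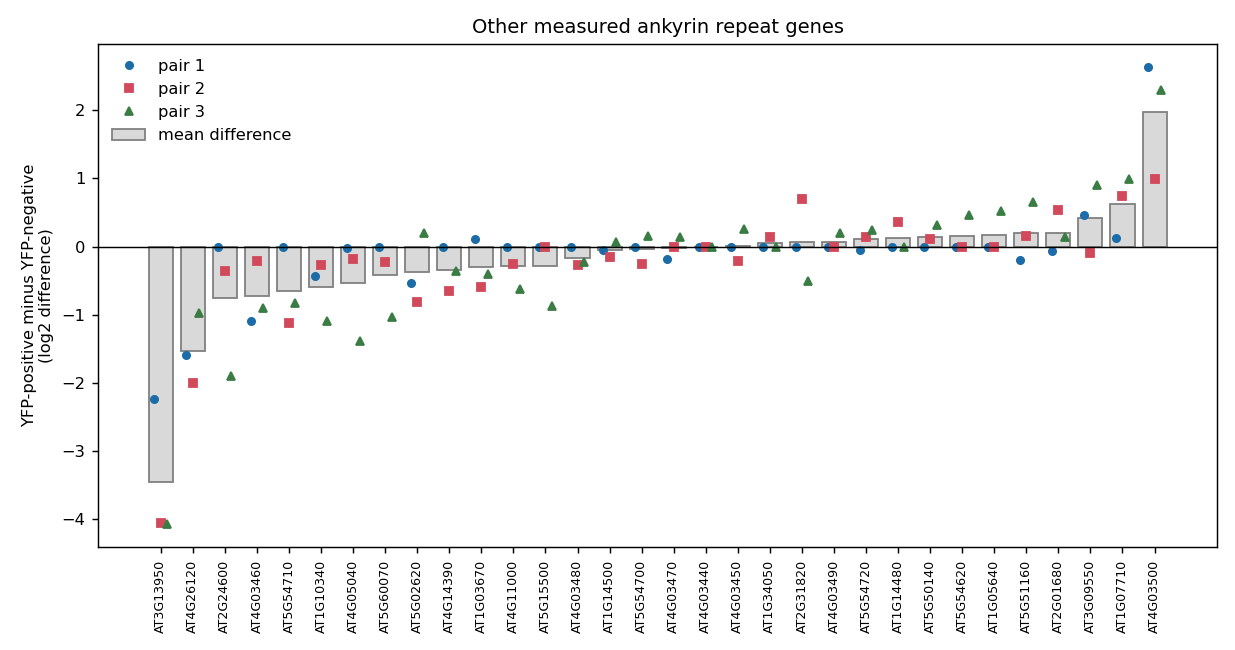
YFP-positive minus YFP-negative log2 difference (vertical axis) of the 32 other ankyrin repeat genes, ordered by their mean (bars), with points for the 3 pairs. AT3G13950 at -3.46 and AT4G03500 at 1.97 stand at the ends, and most bars between them lie close to 0.

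AT3G13950 had the largest difference of that list, in the opposite direction to the tandem genes. It stood at 8.69, 9.20 and 8.51 in YFP-negative and at 6.45, 5.14 and 4.43 in YFP-positive arrays, without overlap. The log2 difference was -3.46 (SE 0.55), with an adjusted p of 0.054 in limma, 0.0912 with the replicate block and 0.00924 to 0.345 over the alternatives. AT4G03500, of the gene cluster related to ACD6, stood at 4.66, 4.55 and 3.45 against 7.30, 5.54 and 5.75, also without overlap. It was higher in YFP-positive cells in 3 of 3 pairs, by 2.64, 0.99 and 2.30. Its log2 difference of 1.97 (SE 0.58) was not called (adjusted p = 0.314 in limma). AT4G26120, also known as NPR2 and a relative of the salicylic acid receptor NPR1, stood at 7.08, 5.70 and 3.57 against 5.48, 3.69 and 2.59. It was lower in YFP-positive cells in 3 of 3 pairs, by -1.60, -2.01 and -0.98, but its groups overlapped and it did not pass (adjusted p = 1.0 in limma, and 0.123 with the block). The other 29 had log2 differences between -0.76 and 0.62.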

How the data were processed

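The authors deposited 1 table of log2 values for 6 Affymetrix arrays, processed by RMA according to the submitters' processing notes, whose settings are not stated; the log2 scale follows from the range of values (-0.11 to 13.39). Of 38408 probe sets, 16722 had exactly 1 gene in the platform annotation, 759 had several and 20927 were not named here. Gene IDs were matched to RefSeq TAIR10.1 (16411 of 16550), and a gene with several probe sets was represented by the one with the highest mean. Differences, YFP-positive minus YFP-negative, came from limma 3.58.1 (lmFit, eBayes, in R 4.3.3) on all 16550 genes, two-sided. Adjustment was by Benjamini-Hochberg, with a threshold of 0.05. The main fit held the group alone, and the replicate block was an alternative. A test on simulated data came first. It drew the arrays independently, without the pairing or ties of the real values, so it does not bear on those. Same-numbered arrays deviated together (r = 0.66, 0.61 and 0.49). The numbers, from the sample titles, were therefore taken to pair the arrays in the block and in the pair differences. Array medians were also closer within a number (2.55 and 2.61, 2.10 and 2.20, 2.80 and 2.92) than between numbers. Whether processing by number gave this was not tested. Block values are printed for some genes only. AT4G30880, AT3G15800 and AT5G03510 were called without the block and not with it. The members, lists and tests were chosen with earlier results of these data known. Named were all members, the 5 genes most correlated with AT5G04700, and, from each list, called genes and the 3 with the largest difference. AT5G04670, AT5G04710, AT3G18640 and AGL103 were chosen after their values were seen. A planned list by protein similarity was not run, and no sequence is printed, since no sequence was used here. The number of arrays limits the precision.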

Additional observations from a re-analysis of the deposited data

How the results depend on the processing

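The number of the 8 members called, AT5G04700 included as a description, was 3 without the block, 0 with the replicate block, 4 with a filter on dim genes, with median centring and with a trend and robust prior, and 0 to 4 when 1 array was left out. It was 0 without replicate 3 of either group and 1 without replicate 1 of either group. AT5G04680, AT5G04690, AT5G04700 and AT3G18670 kept a positive difference in all 14 alternatives each, at 5.43 to 7.79, 5.97 to 7.86, 6.06 to 8.36 and 4.09 to 4.69. The difference of AT5G35810, 0.04, turned to -0.05 with median centring, -0.07 without YFP-negative replicate 2, -0.004 without YFP-positive replicate 2 and -0.12 without both arrays numbered 2, within -0.07 to 0.16 when 1 array was left out. Of the other ankyrin repeat genes, 1 was called with the filter on dim genes, with median centring and with the trend and robust prior, and 0 to 1 with 1 array left out. Of the neighbours, 1 was called with median centring, quantile normalization, the replicate block and the trend and robust prior. Over all genes, 142 higher calls became 82 with the block, 243 with the filter, 256 with the trend and robust prior, 265 with median centring and 37 to 151 with 1 array left out. Median centring moved the median difference of all genes from -0.04 to -0.13 and the share of calls that were higher from 79.3% to 69.0%. The cause of these changes was not tested. The filter removed AT5G04730, AT3G54070, AT5G35810 and AT5G35830, so it gives no value for them. Values under the array medians limit what can be said of these 4.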
